A study of Homo sapiens with 11 samples.

Results

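Cytosolic ribosomal protein genes were followed in BT474 breast cancer xenografts from mice given evexomostat or vehicle. The rows were those whose symbol is RPL or RPS followed by a number (with A or X allowed as a last letter), or is RPLP0, RPLP1, RPLP2 or RPSA. This gave 77 of the 28152 gene symbols in the count table, 31 of the small and 46 of the large ribosomal subunit. Genes such as FAU and RACK1, whose products are also parts of the cytosolic ribosome, have other names and were kept apart in a comparison list.

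BT474 is an established human breast cancer cell line labelled hormone receptor and HER2 positive. Cells were injected into the mammary fat pad of female athymic nude mice, which lack mature T cells but keep other host cells, and every animal carried a slow-release pellet of 0.72 mg oestradiol. The 6 vehicle tumours (replicates 001 and 003 to 007) came from mice given mannitol in water subcutaneously every 4 days. The 5 evexomostat tumours (replicates 002, 003, 004, 005 and 007) came from mice given evexomostat (SDX-7320) at 12 mpk on the same schedule, and all 11 tumours are labelled day 33. The labels give a separate replicate number to each tumour within its group, and nothing states how cages or extraction days were shared. In bulk tumour RNA, fewer cells of a type and less RNA per cell cannot be told apart.

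Evexomostat inhibits methionine aminopeptidase 2, an enzyme that removes the first methionine from new proteins while they leave the ribosome. The ribosome itself is built from ribosomal RNA and close to equal numbers of each ribosomal protein, so cells make these proteins in step. Their mRNAs are short, abundant and start with a C followed by a run of pyrimidines, the terminal oligopyrimidine (TOP) motif, through which mTOR complex 1 and LARP1 control their translation and stability. Cells can hold TOP mRNA in an untranslated reserve when growth signals are low, so mRNA level and protein output need not move together.

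The start sites of 8 genes are shown because they were the ones called higher in the comparison without vehicle 001 described further on. Each line is a window of 30 bases, 15 on each side of the start annotated by RefSeq (build GRCh38.p14), 5′ to 3′ on the gene's strand. Capitals mark the unbroken run of C and T that begins at the annotated first base of the mRNA.
RPS21 (chr20:62387088-62387117, plus strand): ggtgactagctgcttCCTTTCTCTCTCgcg
RPL41 (chr12:56116618-56116647, plus strand): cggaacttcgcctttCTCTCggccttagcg
RPL36 (chr19:5690280-5690309, plus strand): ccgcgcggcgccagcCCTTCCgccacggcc
RPS29 (chr14:49598696-49598725, minus strand): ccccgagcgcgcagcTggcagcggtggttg
RPS13 (chr11:17077653-17077682, minus strand): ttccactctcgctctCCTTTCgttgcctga
RPS3 (chr11:75399503-75399532, plus strand): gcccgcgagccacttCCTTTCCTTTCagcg
RPL27 (chr17:42998404-42998433, plus strand): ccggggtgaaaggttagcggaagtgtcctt
RPL38 (chr17:74203663-74203692, plus strand): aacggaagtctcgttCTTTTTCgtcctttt

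Of these windows, 6 begin with a C and at least 4 more pyrimidines, and those of RPS29 and RPL27 do not at the start RefSeq gives. The run was longest at RPS21, with 12 pyrimidines, and shortest among those 6 at RPL41, with 5. RefSeq's table of promoters held 62 of the 77 genes. A C followed by at least 4 pyrimidines stood exactly at an annotated start of 46 of them (74.2%), against 5.14% of all 27305 genes in that table. In the 300 bases around the start (250 before, 50 after), the letters CCGGAAG, the core bound by ETS factors such as GABP, stood on either strand in 22 of the 62 genes (35.5%) and in 12.2% of all genes. The letters ATGGCGG, a YY1 core, were found in 14 genes (22.6%, against 6.66%), and TATAAA in 5 (8.06%, against 14.0%). None of these motifs contains another, and a match is a description of the sequence only.

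The libraries held 22808033 to 39249329 counts, and RPM values are counts scaled to a common library total. Vehicle 001 stood apart from the rest. Its 100 most abundant genes took 23.9% of the library and between 16.2% and 17.9% of the 10 others, and its TMM scaling factor was 0.86 against 0.96 to 1.08. Of those 100 genes 54 were ribosomal protein genes, against 17 to 47 in the 10 others, so the 23.9% is not separate from their share. Across genes outside the ribosomal protein set, the log2 level of vehicle 001 fell with transcript length (slope -0.19 per log2 unit of length, relative to the mean library). The other slopes lay between -0.06 and 0.07. Results are given with and without this library, a choice made with earlier results of these data known and not derived from these measures. Of the 10 listed markers of BT474, KRT8 ranged from 164 to 537 RPM and KRT18 from 98.7 to 196 RPM. ERBB2 reached only 65.3 RPM, ESR1 0.597 RPM and PGR 0.144 RPM at most. These levels are low for a line labelled HER2 and hormone receptor positive. The remaining markers were low too, with at most 11.05 RPM for GATA3, 4.64 for EPCAM, 1.88 for FOXA1, 1.60 for KRT19 and 1.39 for CDH1. Whether the tumours match the BT474 label was not tested. How reads of the host mouse were handled is not given in the sources used here.

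The genes took a larger share of the RNA in evexomostat tumours than in every vehicle tumour except 001. Their share of all counts was 6.32%, 5.50%, 7.07%, 7.00% and 4.86% in vehicle 003 to 007, and 14.4% in vehicle 001. In evexomostat 002, 003, 004, 005 and 007 it was 8.34%, 8.72%, 7.81%, 7.13% and 8.50%. Without vehicle 001 the groups did not overlap, but evexomostat 005 lay only just above vehicle 005. The mean was 6.15% ± 0.96 (SD, n = 5) in vehicle and 8.10% ± 0.638 (SD, n = 5) in evexomostat, a difference of 1.95 percentage points. With vehicle 001 included, the vehicle mean was 7.53% ± 3.49 (SD, n = 6) and the difference fell to 0.567 points, less than the spread within the vehicle group. With TMM effective library sizes in place of totals, the difference over all libraries turned to -0.13 points. The 95% Wilson intervals of these shares reach at most 0.0141 percentage points to either side and cover counting error only.

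**Figure D1:**
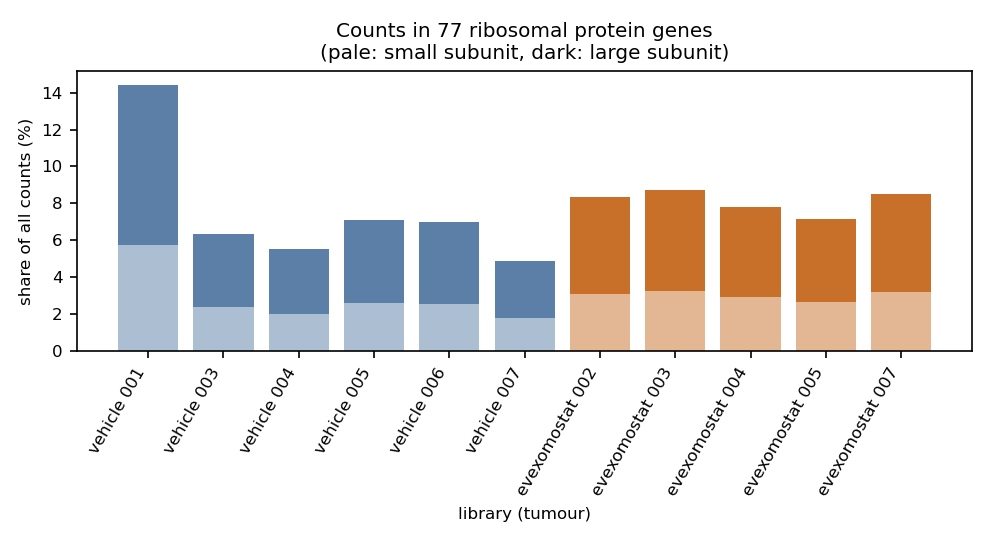
Share of all counts (%) in the 77 genes for each of the 11 libraries, vehicle in blue and evexomostat in orange, with the small subunit as the pale and the large subunit as the dark part of each bar. Vehicle 001 stands at 14.4%, the other vehicle libraries at 4.86% to 7.07% and the evexomostat libraries at 7.13% to 8.72%.

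The balance between the subunits moved little. Small-subunit genes gave 36.0% to 37.4% of the ribosomal protein counts in the 10 libraries other than vehicle 001, and 39.9% in vehicle 001. Among the 100 most abundant genes of a library, 37 to 47 were ribosomal protein genes in evexomostat tumours, 17 to 35 in vehicle 003 to 007, and 54 in vehicle 001.

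Levels between genes are compared per kilobase of transcript, over the 73 genes with a mean of at least 50 RPM. In vehicle 003 to 007 the median was 914 RPM per kilobase, against 8.49 over all tested genes with a length. The highest was RPL8, which lies near the catalytic centre of the large subunit, at 4368 RPM per kilobase, followed by the stalk protein RPLP0 at 2097 and RPS27 at 1977. The lowest was RPS26, a small-subunit protein near the mRNA exit, at 165 RPM per kilobase, so that the 73 genes spanned a 26.5-fold range. The middle 50% of them lay between 616 and 1293 RPM per kilobase. This order and range depend on lengths that are medians over annotated transcripts, such as 1140 bases for RPS26 and 359 for RPS27. The transcripts expressed in the tumours were not measured. The order of genes was nearly the same in evexomostat tumours (Spearman 0.99 of the group means across the 73 genes, given as a description: the genes share their libraries).

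The other 4 genes were counted at a small fraction of those levels in every library. RPS18 had 1 to 8 counts and was the only member that failed the filter on low counts. RPS10 stood at 0.891 to 5.00 RPM, RPL36A at 1.16 to 4.17 RPM and RPL17 at 7.77 to 11.3 RPM. All of these encode core parts of the ribosome. Read-through rows that share their sequence (RPL17-C18orf32, RPS10-NUDT3 and RPL36A-HNRNPH2) held 0 to 2 counts. Rows named as pseudogenes held more beside these low genes: RPS18P9 had 60 to 189 counts, above the 1 to 8 of RPS18, and RPS10P7 had 30 to 90 counts, close to the 31 to 120 of RPS10. All rows named as pseudogenes of 19 members (31 rows) added up to 0.216% to 0.299% of the ribosomal protein counts. How reads shared with the many unnamed copies were treated is not given in the sources used here, so levels of single genes are uncertain to that extent.

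Per-gene changes were tested with edgeR's quasi-likelihood F-test across all genes, with Benjamini-Hochberg adjusted p under 0.05 as the call. Over all 11 libraries no ribosomal protein gene of the 76 tested was called in either direction, and none had an unadjusted p under 0.05. In that comparison 0.174% of the 16653 tested genes were called higher and 0.432% lower. An unadjusted p under 0.05 was seen there for 802 higher and 1423 lower genes. DESeq2 also called 0 of the 76 over all libraries, where it called 649 genes. The median log2 fold change of the 76 genes was -0.04, the same to 2 decimals as over all tested genes, with 30 positive and 46 negative values. They ran from -0.36 for RPL26 to 0.29 for RPL3. In the authors' deposited table, made over all libraries, 0 of the 76 genes had an adjusted p under 0.05. The share over all its genes was 0.952% of 28152, a wider set than the 16653 tested here. The median there was 0.09, with 58 positive values, and RPL3 was the highest at 0.39 with an adjusted p of 0.493 in the authors' deposited table. With library totals in place of TMM scaling, edgeR also gave the 76 genes a median of 0.09 and 58 positive values, against a median of 0.06 over all tested genes.

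Without vehicle 001, 8 ribosomal protein genes rose and none fell. The 8 were RPS21, RPL41, RPL36, RPS29, RPS13, RPS3, RPL27 and RPL38, or 10.5% of the 76 tested, where 1.98% of the 16565 tested genes were called higher and 3.24% lower. The log2 fold change was positive in 75 of the 76, and RPL17 alone was negative at -0.04. The median was 0.36, against -0.00245 over all tested genes, and the highest value was 0.67, at RPL36A. An unadjusted p under 0.05 with a positive change was seen in 57 of the 76, and in 1813 of the 16565 tested genes. On the TMM-normalised scale every evexomostat library lay above every vehicle library for 14 of the 76, against 4.14% of all tested genes. DESeq2 called 37 of the 76 higher, including all 8, and 805 genes higher over all tested genes. Each subunit gave 4 of the calls, from 30 tested small-subunit genes (median log2 fold change 0.36) and 46 large-subunit genes (median also 0.36).

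These calls lay close to the threshold. The smallest adjusted p without vehicle 001 was 0.0208, and RPL18 and RPL13 missed the threshold at 0.0519 and 0.0520 (edgeR, named after their values were seen). Leaving out vehicle 004, evexomostat 004 or evexomostat 007 as well left none of the 76 called, and leaving out vehicle 006 raised the count to 12. Calls over all tested genes moved as well, from 328 higher to 121, 68 and 62 in the former fits and to 374 without vehicle 006. Leaving out vehicle 003, vehicle 007 or evexomostat 002 left RPS21 alone, and leaving out evexomostat 003 left RPS21 and RPL41. In the same order, those fits called 159, 192, 115 and 224 of all tested genes higher.

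**Figure D2:**
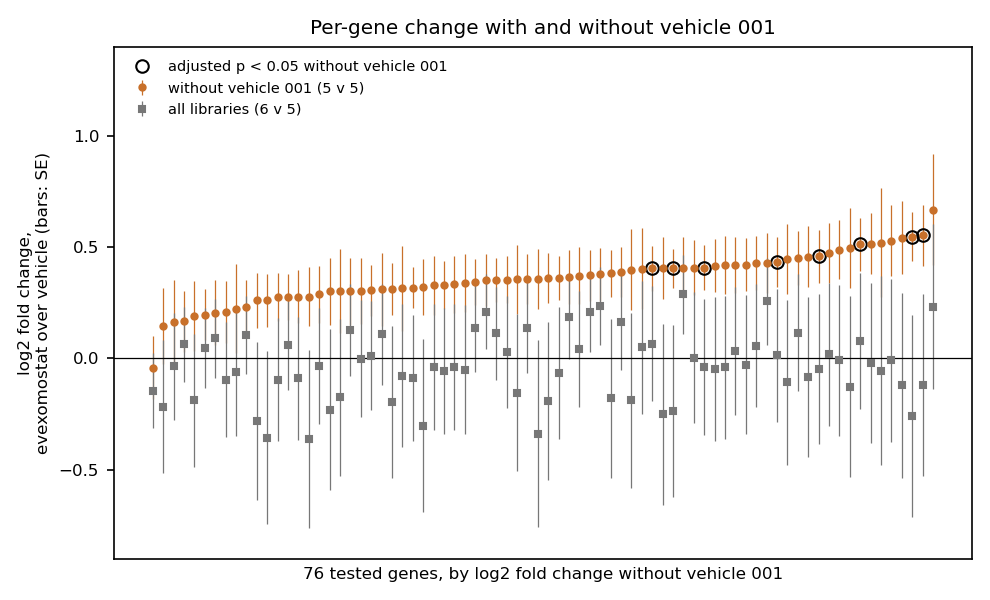
Log2 fold change, evexomostat over vehicle, of the 76 tested genes, with bars for 1 standard error. Grey squares are all libraries and orange circles leave out vehicle 001, and black rings mark the 8 genes with an adjusted p under 0.05. The orange values lie above 0 except for RPL17, and the grey values scatter around 0 with wider bars.

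RPS21, a small-subunit protein needed for the last steps of 18S rRNA maturation, had the smallest p. It stood at 488, 462, 464, 579 and 426 RPM in vehicle 003 to 007 and at 710.4, 855, 738, 594 and 768 RPM in evexomostat 002, 003, 004, 005 and 007, while vehicle 001 had 2274 RPM. Without 001 the groups did not overlap, and evexomostat 005 was the closest to vehicle. Its log2 fold change was 0.55 (SE 0.11; edgeR adjusted p = 0.0208), and with 001 it was -0.26 (edgeR adjusted p = 0.871, SE 0.45).

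RPL41 encodes the smallest protein of the ribosome. It had 198, 197, 227, 233 and 186 RPM in vehicle 003 to 007, 271, 295, 289, 270.2 and 305 RPM in the evexomostat libraries in the same order as above, and 777 RPM in vehicle 001. The spread was narrow in each group, 208 ± 20.5 against 286 ± 15.2 RPM (SD, n = 5 each), with no overlap. Its log2 fold change was 0.41 (edgeR adjusted p = 0.0266, SE 0.09) without 001 and -0.24 (edgeR adjusted p = 0.859, SE 0.39) with it.

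The large-subunit gene RPL36 had 284, 249, 289, 339 and 224 RPM in vehicle 003 to 007 and 383, 509, 399, 352 and 408 RPM in evexomostat, with 735 RPM in vehicle 001. Vehicle 006 and evexomostat 005 nearly met, and evexomostat 003 was the highest of the 10. The log2 fold change without 001 was 0.51 (edgeR adjusted p = 0.0328, SE 0.12). RPL38, a large-subunit protein known for a role in the translation of Hox mRNAs in the embryo, had 223, 237, 254, 286 and 209 RPM in vehicle and 293, 448, 362, 297 and 330.3 RPM in evexomostat, with 729 RPM in vehicle 001. Again evexomostat 003 stood well above the rest, and the lowest evexomostat library exceeded vehicle 006 by a small margin. Its log2 fold change was 0.46 (edgeR adjusted p = 0.0476, SE 0.12).

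RPS29, a zinc-binding protein of the small-subunit head, had 210.4, 203, 246, 309 and 176 RPM in vehicle 003 to 007 and 324, 421, 346, 302 and 346 RPM in evexomostat, with 891 RPM in vehicle 001. Here the groups overlapped, because vehicle 006 lay above evexomostat 005. Its log2 fold change was 0.55 (SE 0.14; edgeR adjusted p = 0.0389). RPS13, which sits at the interface with the large subunit, had 266, 253, 307, 292 and 229 RPM in vehicle and 393, 372, 370.4, 329 and 392 RPM in evexomostat, with 734 RPM in vehicle 001. In RPM these groups did not overlap, although they did after TMM scaling. Its log2 fold change was 0.41 (edgeR adjusted p = 0.0415, SE 0.10).

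RPS3 forms part of the mRNA entry channel and also acts in DNA repair. It had 747, 691, 804, 799 and 607 RPM in vehicle 003 to 007 and 1046, 1026, 939, 923 and 1075 RPM in evexomostat, with 1613 RPM in vehicle 001. The groups did not overlap without 001, with SDs of 82.8 and 66.9 RPM, and its log2 fold change was 0.40 (SE 0.10; edgeR adjusted p = 0.0438). RPL27 had 449, 419.7, 524, 545 and 395 RPM in vehicle and 672, 635, 677, 575 and 706 RPM in evexomostat, with 1209 RPM in vehicle 001. Vehicle 006 came closest to evexomostat 005, and its log2 fold change was 0.43 (edgeR adjusted p = 0.0452, SE 0.11).

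**Figure D3:**
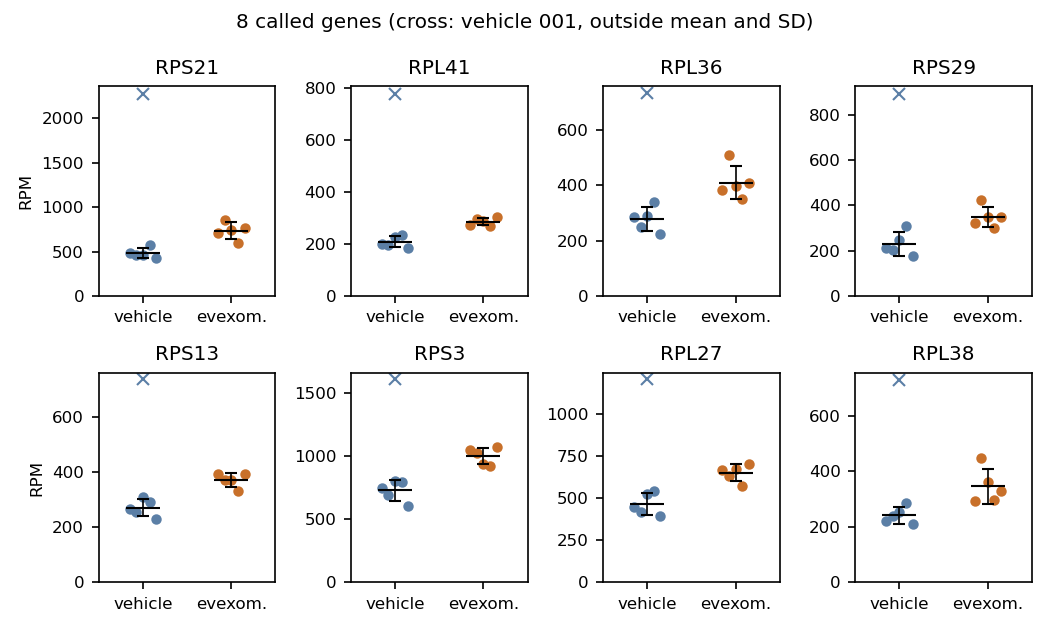
RPM of the 8 called genes in each library, with the mean and SD of vehicle 003 to 007 and of the 5 evexomostat libraries in black and vehicle 001 as a cross that enters neither. In every panel the cross lies above all other points, and the evexomostat points lie above the vehicle points except in RPS29, where 302 RPM in evexomostat 005 is below 309 RPM in vehicle 006.

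The members described next were named by their role, level or extreme fold change, and none besides the 8 was called. The P stalk of RPLP0, RPLP1 and RPLP2 recruits the elongation factors to the ribosome. RPLP2 had 370.4, 395, 428, 445 and 322 RPM in vehicle 003 to 007 and 497, 684, 565, 453 and 532 RPM in evexomostat (log2 fold change without 001 0.42, edgeR adjusted p = 0.0572, SE 0.12). RPLP0 and RPLP1 overlapped widely between the groups. RPLP0 ran from 1514 to 3032 RPM in vehicle 003 to 007 and from 2238 to 3407 RPM in evexomostat, and RPLP1 had 628 RPM in evexomostat 007, below 4 of these 5 vehicle libraries. Their log2 fold changes were 0.22 (SE 0.20) and 0.19 (SE 0.16).

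RPL5 and RPL11 form a particle with 5S ribosomal RNA that can also bind MDM2 and so stabilise p53. RPL11 had 518, 668, 662, 663 and 466 RPM in vehicle 003 to 007 and 720.0, 934, 819.6, 704 and 806 RPM in evexomostat (log2 fold change 0.37, edgeR adjusted p = 0.0925, SE 0.12). RPL5 had 533 ± 86.9 and 675 ± 67.9 RPM (SD, n = 5 each), with overlap of the groups and a log2 fold change of 0.29 (edgeR adjusted p = 0.192, SE 0.13).

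RPL4, RPL17 and RPL39 line the tunnel through which the new protein leaves, and RPL22, RPL26 and 4 others of the list surround its exit. RPL39 had 391 ± 76.2 and 570.0 ± 87.2 RPM (SD, n = 5 each; log2 fold change 0.49, edgeR adjusted p = 0.0549, SE 0.13). RPL4, the longest transcript of the set, had 1922 ± 120.0 and 2286 ± 294 RPM, a log2 difference of 0.20 (SE 0.11). RPL17 stood at 9.15 ± 1.17 and 9.22 ± 0.820 RPM. Of the 6 genes at the exit rim none was called, with log2 fold changes from 0.28 to 0.53. RPL26, whose product also binds the mRNA of p53, had the lowest value of all when vehicle 001 was kept, since that library held 3254 RPM while vehicle 003 to 007 held 619 to 1051 and evexomostat 999 to 1184.

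Members with roles in signalling or outside the ribosome were RPS6, RPSA and RPS27A, besides RPS3. RPS6, the substrate of the S6 kinases, had 1099.8, 888, 1077, 1106 and 767 RPM in vehicle 003 to 007 and 1426, 1515, 1309, 1208 and 1386 RPM in evexomostat. The groups did not overlap, and the edgeR adjusted p was 0.0602 at a log2 fold change of 0.42 (SE 0.12). The log2 difference was 0.30 (SE 0.15) for RPSA, also known as a laminin receptor, and 0.36 (SE 0.14) for RPS27A, made as a fusion with ubiquitin. RPS27A was 3.89-fold higher in vehicle 001 (3414 RPM) than in the median of the other vehicle libraries.

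The log2 difference was 0.41 (SE 0.14) for RPL3, close to the catalytic centre, and 0.23 (SE 0.12) for RPL10, which joins the large subunit late. RPS14 and RPS19, whose reduced dose is a cause of the anaemia of the 5q- syndrome and of Diamond-Blackfan anaemia, had log2 differences of 0.45 (SE 0.16) and 0.38 (edgeR adjusted p = 0.0550, SE 0.11). RPL3 and RPL10 were also among the genes least raised in vehicle 001, at 1.29 and 1.34 times the median of the other vehicle libraries. RPS14 and RPS19 were raised there 3.46-fold and 3.37-fold.

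At the top of the range of levels, RPL8 had 4579.9, 3908, 4544, 4971 and 3617 RPM in vehicle 003 to 007 and 5931, 6260.2, 5898, 5111 and 6113 RPM in evexomostat. The groups did not overlap, and the log2 difference of 0.39 (SE 0.11) had an edgeR adjusted p of 0.0647. RPS26, the lowest per kilobase and named after its values were seen, also showed no overlap, with 173 to 204 RPM in vehicle and 216 to 287 RPM in evexomostat (edgeR adjusted p = 0.0652). RPS25, RPL30, RPL31 and RPL35A, named after their values were seen, were also among the 14 genes without overlap on the TMM-normalised scale. RPL36A, the gene with the highest log2 fold change, rested on 33 to 99 counts a library. It ran from 1.16 to 1.93 RPM in vehicle 003 to 007 and from 1.81 to 4.17 RPM in evexomostat, where replicate 003 stood above the rest (SE of the log2 difference 0.25, edgeR adjusted p = 0.128).

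Across libraries the genes tended to be high or low together. Of the 73 genes with at least 50 RPM, vehicle 001 was the highest of the 6 vehicle libraries in 71 and above all 10 other libraries in 62. Its level over the median of the other vehicle libraries ran from 1.28-fold (RPL14) to 4.90-fold (RPS21), with a median of 2.41-fold. Vehicle 007 was the lowest of all 11 libraries in 65 of the 73. Among the 10 other than vehicle 001, evexomostat 003 was the highest in 40 genes, evexomostat 007 in 16 and evexomostat 002 in 15, and evexomostat 005 was the lowest of its group in 56. Genes raised most in vehicle 001 tended to have the larger change without it (Spearman 0.43 across the 73 genes, a description; the ratio and the change both use vehicle 003 to 007).

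**Figure D4:**
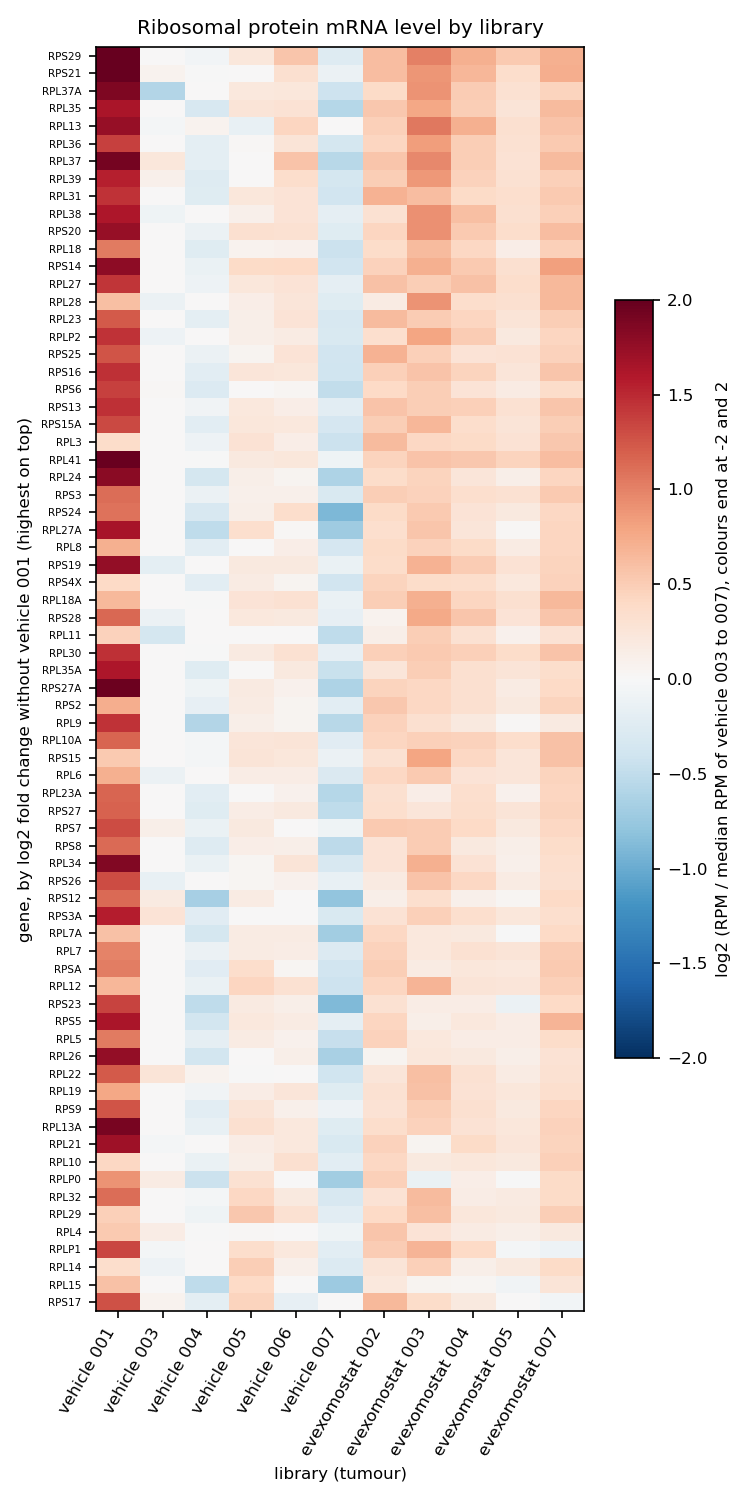
Log2 of RPM over the median of vehicle 003 to 007 for 72 of the genes with at least 50 RPM (rows, by log2 fold change without vehicle 001) in the 11 libraries (columns). Vehicle 001 is the darkest red column, at a median of 2.41-fold over the 73 genes, the evexomostat columns are mostly pale red with evexomostat 003 the reddest, and vehicle 007 is mostly blue.

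Transcript length moved with these changes. The median length was 764.5 bases over the 73 genes, against 2447 over all tested genes with a length. Without vehicle 001, other genes under 750 bases had a median log2 fold change of 0.13, those of 750 to 1500 bases 0.10, those of 1500 to 3000 bases 0.02 and those above 6000 bases -0.16. The ribosomal protein genes lay higher in the same length classes, at 0.41 for the 37 under 750 bases, 0.34 for the 34 of 750 to 1500 bases and 0.23 for the 5 longer ones. Of the 8 called genes, 7 were under 750 bases, where 3.88% of the other genes were called higher. With the trends on length and GC content removed from each library, the median of the 76 genes was 0.28, against 0.01 over all tested genes. RPS21 was the only member called in that fit, where 213 of all tested genes were called higher and 360 lower. The slopes on length ran from 0.02 to 0.07 in vehicle 003 to 007 and from -0.06 to 0.04 in evexomostat libraries.

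**Figure D5:**
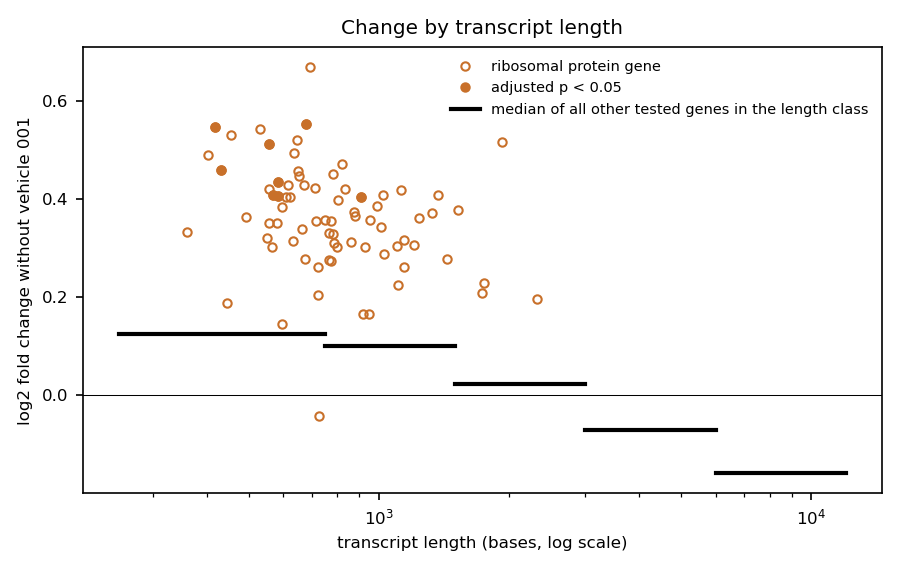
Log2 fold change without vehicle 001 against transcript length (log scale) for the 76 genes (circles, filled where the adjusted p was under 0.05), with the median of all other tested genes in each of 5 length classes as black lines (the first and last class are drawn cut short). Short genes outside the set also lie above 0, at 0.13 under 750 bases, and the ribosomal protein genes under 750 bases have a median of 0.41.

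The change was also set beside the pyrimidine run at the start. The 45 tested genes with a C and at least 4 pyrimidines at an annotated start had a median log2 fold change of 0.40 without vehicle 001 and 6 calls, and the 16 without it had 0.35 and 2 calls. These counts describe annotated starts, and the starts used in the tumours were not measured.

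Ribosomal proteins with other names and close paralogs of the set (11 genes, 9 tested) had no call without vehicle 001 and a median log2 fold change of 0.23. FAU, which encodes RPS30 fused to a ubiquitin-like protein, had 441 ± 23.1 and 571 ± 71.4 RPM (SD, n = 5 each; log2 fold change 0.32, edgeR adjusted p = 0.0707, SE 0.09). The paralogs RPL22L1 and RPL26L1 had log2 differences of 0.54 (SE 0.17) and 0.31 (SE 0.09), with edgeR adjusted p of 0.0824 and 0.0569. Other TOP mRNAs, which code for elongation and initiation factors and a few further proteins, had smaller values: none of 15 was called, 14 were positive, and the median was 0.13. EEF1D, an exchange factor for elongation factor 1, had 1131 ± 124 and 1482 ± 76.2 RPM (edgeR adjusted p = 0.0579). The log2 fold change was 0.34 for EEF1D (SE 0.09), 0.35 for EEF1B2 (SE 0.14) and 0.25 for the histone chaperone gene NAP1L1 (SE 0.09).

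Of 19 regulators of TOP mRNA translation, 1 rose and 1 fell without vehicle 001 (5.26% each, against 1.98% higher and 3.24% lower over all tested genes), around a median of -0.03. EIF4EBP1, whose product holds the cap-binding protein eIF4E until mTOR phosphorylates it, rose from 40.7 ± 8.18 to 63.8 ± 7.84 RPM (SD, n = 5 each; log2 fold change 0.59, edgeR adjusted p = 0.0455, SE 0.15). RPS6KA1, a kinase of the RSK family, fell from 65.8 ± 8.68 to 44.2 ± 5.09 RPM (log2 fold change -0.63, edgeR adjusted p = 0.0119, SE 0.11). MYC, a transcription factor that drives ribosome production, had 118 ± 15.3 and 165 ± 35.4 RPM with an edgeR adjusted p of 0.121. Over all libraries none of the 19 was called. On leaving out each of the 10 libraries in turn besides vehicle 001, the call of RPS6KA1 was kept 10 times and that of EIF4EBP1 was lost 9 times.

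RNA polymerase I transcribes ribosomal RNA, and 3 of its 19 listed genes rose without vehicle 001 while none fell (15.8% higher, against 1.98% over all tested genes; median 0.15). POLR1C, shared with RNA polymerase III, rose from 28.1 ± 1.39 to 36.5 ± 1.33 RPM (log2 fold change 0.32, edgeR adjusted p = 0.0453, SE 0.08). POLR2F, shared by all 3 nuclear polymerases, rose by 0.40 (edgeR adjusted p = 0.0359, SE 0.10), and CD3EAP, a subunit of polymerase I, by 0.78 (edgeR adjusted p = 0.0349, SE 0.19) from a low level of 5.15 ± 0.683 RPM. With 1 more library left out, the call was lost in all 10 cases for POLR1C, in 7 for POLR2F and in 8 for CD3EAP.

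Ribosome assembly factors gave the smallest p of the lists on ribosome production. Of 60, 3 rose (5.00%, against 1.98% over all tested genes) and 1 fell (1.67%, against 3.24%), 51 were positive and the median was 0.15. BOP1, of the PeBoW complex that matures the large subunit, rose from 119 ± 4.06 to 205 ± 21.5 RPM (SD, n = 5 each; log2 fold change 0.73, edgeR adjusted p = 0.00687, SE 0.10). RRS1, which helps to install the 5S particle of RPL5 and RPL11, rose from 36.0 ± 4.11 to 58.0 ± 3.88 RPM (log2 fold change 0.63, edgeR adjusted p = 0.00903, SE 0.10). The third to rise was RRP9, a U3 snoRNP protein named after its values were seen (0.43, edgeR adjusted p = 0.0489, SE 0.11). RIOK3, a kinase found on precursors of the small subunit, fell from 126 ± 15.5 to 95.8 ± 6.47 RPM (log2 fold change -0.46, edgeR adjusted p = 0.0298, SE 0.10). Vehicle 001 had 158 RPM of BOP1 and 37.7 RPM of RRS1, and RRS1 was the single gene of the lists on ribosome production called over all libraries (log2 difference 0.58, edgeR adjusted p = 0.0465, SE 0.12). The calls of BOP1 and RRS1 were kept whichever of the other 10 libraries was left out, and that of RIOK3 was lost in 6 of the 10 cases.

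The mitochondrial ribosome has its own proteins, encoded in the nucleus. Of 76 tested, 10 rose and none fell without vehicle 001 (13.2% higher, against 1.98% over all tested genes), 69 were positive and the median was 0.20, below the 0.36 of the cytosolic set. MRPL24 rose by 0.58 (edgeR adjusted p = 0.00903, SE 0.09), MRPL1 by 0.75 (edgeR adjusted p = 0.0136, SE 0.14) and MRPL11 by 0.48 (edgeR adjusted p = 0.0198, SE 0.10). Of these, MRPL11 lost its call without evexomostat 004 or evexomostat 007. Nuclear genes of the respiratory chain and ATP synthase had no call among 79 and a median of 0.17. Vehicle 001 was the highest library for the summed level of both lists, at 7963 RPM for the mitochondrial ribosome (4334 to 4680 in vehicle 003 to 007) and 25610 RPM for the respiratory chain (12328 to 13675). Over all libraries none of either list was called.

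Genes that could come from cells other than the tumour's varied between libraries beside these changes. The 15 stroma markers summed to 847 to 4155 RPM in vehicle 003 to 007 and to 1012 to 1817 RPM in evexomostat, and DCN, a fibroblast marker, reached at most 1.43 RPM. Skeletal muscle markers (12 genes) summed to 8.08 to 27.4 RPM in vehicle and to 10.6 to 511 RPM in evexomostat, with the highest value in evexomostat 005, the library with the lowest ribosomal protein share of its group. Within this muscle list ACTA1 reached 147 RPM, MYH1 104, MYH4 80.3, MYH2 78.0 and ATP2A1 61.4. CKM, TNNT3, MYLPF and PVALB reached at most 0.300, 0.292, 0.220 and 0.105 RPM in any library. Leaving out evexomostat 005 and vehicle 001 gave 5 calls among the ribosomal protein genes, of which 3 (RPL36, RPL41 and RPS21) were among the 8 named above. In that fit 169 of all tested genes were called higher and 262 lower. The share difference was then 2.19 percentage points. The 14 blood cell markers summed to 136 to 240 RPM in vehicle 003 to 007 and 103 to 191 RPM in evexomostat with CD3E at 0, the 11 endothelial markers to 15.1 to 26.3 and 13.6 to 19.2 RPM with CDH5 at most 0.0575 RPM, and the 8 adipocyte markers to 10.7 to 63.1 and 8.59 to 28.6 RPM with ADIPOQ and RETN at 0. Without vehicle 001, 2 of the 15 stroma markers were called lower (13.3%, against 3.24% of all tested genes). The list did not move in 1 direction, with 8 positive and 7 negative log2 fold changes and a median of 0.19. No tested marker of the other host lists was called. The part of these cells in the ribosomal protein result was not tested.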

How the data were processed

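RNA-seq of 11 tumours was analysed. The deposited counts are whole-number read counts per gene symbol. The deposited RPM values equal counts scaled to the same total in each library, checked on the files. The authors' deposited comparison table gives log2 fold changes, log2 CPM, p-values and group means as signal in RPM (not used here). Per the submitters' processing notes the tools were bcl2fastq 2.17, STAR 2.7.5c, Subread with featureCounts, and edgeR, and the build was GRCh37/hg19. Settings, annotation and strand use are not given in the sources used here.

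Counts were filtered with filterByExpr (minimum count 10, minimum total 15), scaled by TMM and tested with edgeR 4.0.16 in R 4.3.3 (quasi-likelihood F-test, Benjamini-Hochberg over all tested genes, threshold 0.05), with all libraries and again without vehicle 001. The SE is the one implied by F. P-values weigh the difference between the groups against the spread between these samples, with each gene's spread moderated across genes. Alternatives used DESeq2 1.42.0 and limma 3.58.1. Scripts were tested on simulated data. Transcript lengths are medians over GENCODE 29 basic transcripts, found for 94.6% of tested genes. Start sequences are from RefSeq, in another build than the files.

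The members, gene lists and comparisons were chosen with earlier results of these data known. Genes were named by role (18 fixed members), by smallest p (6 higher, 3 lower), by extreme fold change, by the 3 highest and 3 lowest levels, and by the 3 smallest p of each list. Of the genes lower without vehicle 001 there was only RPL17. Shares and medians over the set carry no p-value. Single values of a few genes are not reported here, though they stay in the counts and medians.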

Additional observations from a re-analysis of the deposited data

Results flagged for a closer look

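In the vehicle group of 6, vehicle 001 stood apart from the nearest other library by more than Dixon's 95% limit (0.625 of the range) for the share of counts and for 21 of the named genes. All 22 such values were in vehicle 001 and in each case it was the highest. Over the 56 groups of values examined, vehicle and evexomostat groups together, chance alone flags about 1 in 20, or 2.8, and these groups are not independent of one another. Vehicle 001 had been set apart beforehand with earlier results of these data known, and all 22 values come from this 1 library. The 2.8 therefore gives no test of chance for them. The share was 14.4%. Among the large-subunit genes the values in vehicle 001 were 780 RPM for RPL22, 3254 for RPL26, 1209 for RPL27, 735 for RPL36, 4.13 for RPL36A, 729 for RPL38, 1162 for RPL39, 2717 for RPL4, 777 for RPL41, 1139 for RPL5, 7399 for RPL8, 1687 for RPLP1 and 1073 for RPLP2. Among the small-subunit genes they were 734 RPM for RPS13, 3277 for RPS14, 1542 for RPS19, 2274 for RPS21, 3414 for RPS27A, 891 for RPS29, 1613 for RPS3 and 2775 for RPS6.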

How the results depend on the processing

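Over all libraries, the median log2 fold change of the ribosomal protein genes (-0.04) became positive with length and GC trends removed (0.0872), library totals only (0.0948), limma-trend on log2(RPM + 0.1) or log2(RPM + 1) (0.22 each), limma-voom (0.12), its quality weights (0.29), and in the 8 libraries of shared numbers with a replicate block (0.38) or with no replicate block (0.37), which leave out vehicle 001. The median over all tested genes, -0.04 in the main fit, was -0.01 with trends removed, 0.06 with totals only, and 0.10 and 0.08 with limma-trend. It was 0.0062 with limma-voom, 0.0054 with weights, 0.0079 with the block and -0.0065 with no block. For the ribosomal protein genes, leaving out single libraries gave -0.14 to 0.36. The share difference became -0.13 points with TMM effective library sizes. RPL26 reversed to 0.0328 and 0.0326 under the limma-trend scales, 0.22 with quality weights, 0.36 with the block and 0.34 without. RPL41 reversed to 0.15 and 0.14 (limma-trend, smaller and larger pseudocount), 0.0290 (voom), 0.35 (weights), 0.43 (block) and 0.43 (no block). RPS21 reversed to 0.22 under both limma-trend scales, 0.11 (voom), 0.43 (weights), 0.57 (block) and 0.59 (no block). Single libraries left out gave -0.51 to 0.28 for RPL26, -0.35 to 0.41 for RPL41 and -0.39 to 0.55 for RPS21. Genes differing over all libraries (101) numbered 649 with DESeq2, 62 with totals only, 1059 with quality weights and 733 in the 8 libraries, where 6 members were higher, and 1 to 865 on leaving out single libraries, with 0 to 8 members higher. The count was 1 without evexomostat 005.

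Without vehicle 001, 865 genes differed, against 2027 with DESeq2, 573 with length and GC trends removed, 1314 with quality weights, 105 with the replicate block, and 215 to 1068 on leaving out single libraries. The 8 members higher became 37 with DESeq2, 1 with length and GC trends removed, 25 with library totals only, 23 and 18 with limma-trend (pseudocounts 0.1 and 1), 3 with no count filter, 17 with upper quartile scaling, and 0 with the replicate block (6 in the same 8 libraries without it). Over all tested genes, 328 were higher in the main fit, 805 with DESeq2, 213 with trends removed, and 555 with totals only. They numbered 576 and 554 with limma-trend, 206 with no count filter, 490 with upper quartile scaling, 23 with the block and 225 without it. Leaving out single libraries gave 0 to 12 members higher, and 62 to 374 of all tested genes. RPL17 turned positive with totals only (0.0117), limma-trend (0.0154 and 0.0136), weights (0.0074) and upper quartile scaling (0.0066), and ran from -0.11 to 0.0218 on leaving out single libraries. Of the called genes, 37.9% were higher, against 55.0% with totals only and 50.9% with upper quartile scaling. Over all libraries 28.7% were higher, against 54.8% with totals only. Same-numbered tumours did not deviate together (correlations -0.27, 0.07, 0.05 and -0.10 for 003, 004, 005 and 007), so the numbers were not taken as pairs. The cause of these shifts was not tested. A share without mitochondrially encoded genes was not run, since the table holds 0 such rows. The median SE of a member's log2 fold change was 0.30 over all libraries and 0.13 without vehicle 001, where the median change was 0.36.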
